A study of Mus musculus with 4 samples.

Results

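The growth hormone receptor, its kinase and STAT5 factors, their feedback inhibitors and a pair of further signaling regulators were followed as 8 genes (*Ghr*, *Jak2*, *Stat5a*, *Stat5b*, *Cish*, *Socs2*, *Bcl6* and *Rgs3*) of 13167 named genes with a tested probe. They were read through 14 probes of an Agilent mouse expression array that holds 55681 non-control probes. A probe was included where its design accession maps to one of the genes in a RefSeq table, and every such probe is reported. The genes were chosen from the *Rap1*-deficient against wild-type contrast of these same arrays, so their ratios and calls are a description, and no p-value is given for their difference between genotypes.

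Growth hormone acts on the liver through its receptor, GHR, a single-pass receptor of the class I cytokine family that carries the tyrosine kinase JAK2 on its inner side. Hormone binding activates JAK2, which phosphorylates STAT5A and STAT5B, and these enter the nucleus and switch on target genes at sites that read as an inverted repeat of TTC and GAA. Among the targets are the genes of inhibitors, CISH and SOCS2, which bind phosphorylated receptor and shut the signal down. BCL6, a transcriptional repressor that recognises much the same DNA letters as STAT5, is known in liver as a gene that growth hormone lowers. RGS3 belongs to a different system: RGS proteins speed up the hydrolysis of GTP by G protein alpha subunits and so end signaling by G protein-coupled receptors.

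Livers of *Rap1*-deficient (*Rap1* -/-) mice, which lack the telomere-binding protein RAP1 encoded by *Terf2ip*, were compared with livers of wild-type mice. The knockout is whole-body: mice with a floxed *Rap1* gene were crossed with *EIIa-cre* mice, in which the recombinase acts in the early embryo, and the *cre* allele was later bred out. Both genotypes were on a mixed C57BL6/129SV background and standard chow, and the labels give an age of 30 weeks and no sex, whereas the paper describes females of a somewhat higher age. Each of the 4 arrays carried both genotypes in different dyes. The *Rap1*-deficient liver was labelled with Cy5 in replicates 1, 2 and 3 and with Cy3 on a dye-swapped array, which its label numbers 1 and which was taken as the same RNA pair as replicate 1. The labels do not tie arrays to animals beyond naming biological replicates, so the spread given here is that between these arrays or pairs. Whether the wild-type RNA came from a different animal on each array was not tested. The bulk liver RNA cannot separate a change in the number of cells of a type from a change of RNA per cell.

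All ratios below are log2 of *Rap1*-deficient over wild-type, with the sign of the dye-swapped array turned to match. A mean is over n = 3 pairs, in which replicate 1 and its dye swap were averaged first, and its error is the SD over pairs. Pair 1 alone averages both dye orientations, so the mean and SD also hold any dye effect left in replicates 2 and 3. A probe was called where limma's adjusted p over all 27513 tested probes was under 0.15. Across probes, the 3 Cy5 arrays had pairwise r of 0.64 to 0.85, and their r with the dye-swapped array was -0.29 to -0.24. Its ratios had an SD of 0.24, and theirs 0.48 to 0.51. Probe A_52_P381806 of *Terf2ip*, the deleted gene, exceeded background clearly in wild-type liver (4 of 4 arrays) but never in the knockout (0 of 4), with ratios of -1.92 to -1.68 and a level at least 3.33-fold lower, so the labels and the turned sign held on every array. Its other probe, A_55_P2094079, was higher in *Rap1*-deficient liver, at 0.72 to 1.17, and where either probe lies against the deleted part was not analysed here. Hepatocyte markers were bright in both genotypes, with 1 of 6 called and mean log2 levels of 15.2 to 15.6 and 15.1 to 15.6.

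In *Rap1*-deficient liver the feedback inhibitors were low and the repressor was high. *Cish* was lower by a mean log2 ratio of -2.00, and *Socs2* was 2.20-fold lower by its 10-spot probe. *Bcl6* was 1.79-fold higher by its mean, with a large spread between pairs. By contrast the kinase and both STAT5 genes differed by less than the spread between arrays or changed sign with the dye. The receptor was called lower by 1 of its 2 probes, which was low on the Cy5 arrays alone. Of the 14 probes, 6 were called lower, against 13.7% of all tested probes, 1 was called higher, against 20.8%, and 7 were not called. Nothing is read from these shares, since the choice of genes used this contrast.

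**Figure D1:**
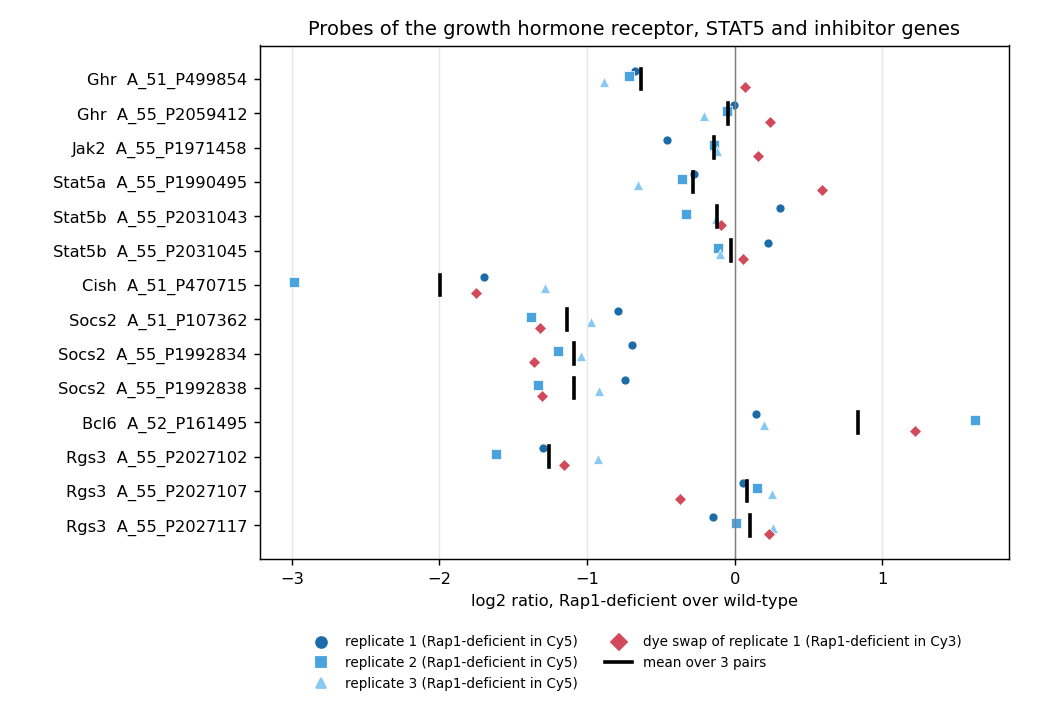
Log2 ratio of *Rap1*-deficient over wild-type liver (horizontal axis) for each of the 14 probes, with 1 symbol per array and a black bar at the mean over 3 pairs. *Cish*, the 3 *Socs2* probes and 1 *Rgs3* probe lie below 0 on all 4 arrays and *Bcl6* lies above 0 on all 4, while *Ghr*, *Jak2* and *Stat5a* have the dye swap on the other side of 0 from the remaining arrays.

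The letters that STAT5 reads were looked up in the promoters first, because CISH and BCL6 are its textbook targets. The motif TTCNNNGAA, which reads the same on both strands, was searched in RefSeq windows of 250 bases before to 50 after each gene start (assembly GRCm38.p6). Of 8 genes 7 had windows, 12 in all, and *Socs2* had none in the table used. The motif stood in 3 of the 12 windows, the one of *Cish* and both of *Bcl6*, and in 8.3% of 32851 mouse windows. BCL6's own recognition letters overlap this motif, so the match does not name a factor. The arrays measured RNA and no binding. The stretches that hold the matches are printed 5′ to 3′ on the gene's strand, with the motif in capitals.
*Cish*, start of the gene, chr9:107296654-107296683, + strand: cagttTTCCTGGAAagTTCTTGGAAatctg
*Bcl6*, before its start with the most matches, chr16:23981358-23981457, - strand: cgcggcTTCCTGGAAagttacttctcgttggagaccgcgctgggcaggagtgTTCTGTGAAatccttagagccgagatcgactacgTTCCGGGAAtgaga
The *Cish* window held 2 matches, at positions 0 and 11, where 0 is the first of the 50 bases after the start, and 0.457% of windows held 2 or more. The *Bcl6* window held 3 matches, at positions -168, -122 and -88, and 0.0335% of windows (11) held 3 or more. The other *Bcl6* window held 1, TTCTCAGAA at position -118. The windows of *Ghr*, *Jak2*, *Stat5a*, *Stat5b* and *Rgs3* held 0, which says only that these letters are not in those bases.

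*Ghr*, the receptor, was measured by a pair of probes that differed from each other. Probe A_51_P499854 (designed on NM_010284) had -0.68, -0.71 and -0.88 in the Cy5 arrays of replicates 1 to 3, with 0.07 when the dyes were swapped, a mean of -0.63 ± 0.30 (SD, n = 3 pairs). Its log2 channel levels were 13.44, 13.44, 13.22 and 13.83 in *Rap1*-deficient liver and 14.12, 14.15, 14.10 and 13.76 in wild-type, in the same order of arrays. The wild-type level was the higher on the 3 Cy5 arrays and not on the swap, so the genotypes overlapped over the 4 arrays. Probe A_55_P2059412 (NM_001048178) gave 0.00, -0.05, -0.20 and 0.24, a mean of -0.05 ± 0.16, and was not called. Which *Ghr* transcripts each probe reads was not tested. The ratio of the first probe minus that of the second was -0.68 to -0.66 on the Cy5 arrays and -0.17 on the swap. The dye term of A_51_P499854, the Cy5 arrays minus the swap in a limma fit over 4 arrays, was -0.83 (limma adjusted p = 0.0372), and 27.6% of all tested probes had a dye term past the threshold. With that dye term in the fit, the mean of A_51_P499854 was -0.34, still called lower. It was -0.59 and not called without replicate 2, and -0.55 and not called with the swap as a replicate of its own.

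*Jak2*, the kinase that the receptor carries, had ratios of -0.46, -0.14, -0.12 and 0.16 and a mean of -0.14 ± 0.01 by A_55_P1971458. Its small SD comes from the average of replicate 1 and its swap, which were 0.61 apart, and it was not called. *Stat5a* had -0.27, -0.36, -0.65 and 0.59 by A_55_P1990495, a mean of -0.28 ± 0.41, and was not called. Its levels were lower in *Rap1*-deficient liver on the Cy5 arrays, at 9.57 to 9.95 against 10.23 to 10.27, and higher on the swap, at 10.35 against 9.75. The dye term of *Stat5a* was -1.02 (limma adjusted p = 0.0369), larger in size than its mean. *Jak2* and *Stat5a* were each called lower under 2 of 15 alternative settings.

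*Stat5b*, the more abundant STAT5 form in liver by textbook knowledge, was read by probes A_55_P2031043 and A_55_P2031045. The first gave 0.30, -0.33, -0.13 and -0.09, a mean of -0.12 ± 0.22. The second gave 0.23, -0.11, -0.10 and 0.05, a mean of -0.02 ± 0.14. Both were positive on replicate 1 and negative on replicates 2 and 3, neither was called under the main or any of 15 alternative settings, and their genotype levels overlapped. Their dye terms were 0.04 and -0.05. RNA abundance says nothing about phosphorylation, which the arrays did not measure.

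*Cish*, the inhibitor that STAT5 induces and that competes for receptor sites, was the lowest of the genes. Its probe A_51_P470715 had ratios of -1.70, -2.99, -1.29 and -1.75 and a mean of -2.00 ± 0.88, which ranked 8 from the bottom of 27513 tested probes. Its levels were 9.57, 8.25, 9.86 and 9.22 in *Rap1*-deficient liver against 11.27, 11.24, 11.14 and 10.97 in wild-type. Replicate 2 had the lowest *Rap1*-deficient level, the wild-type levels of the arrays lay within 0.30 of each other, and the genotypes did not overlap. Replicate 1 and its dye swap differed by 0.05, and the dye term was -0.24 (limma adjusted p = 0.833). The mean ran from -2.35 to -1.51 over 15 alternative settings and was called lower under 14 of them. It was -1.51 and not called without replicate 2.

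*Socs2*, which recruits the receptor for degradation, was low by all 3 of its probes. Probe A_51_P107362, printed in 10 spots on each array, gave -0.79, -1.38, -0.97 and -1.32, a mean of -1.13 ± 0.22. Its 10 spots had an SD of 0.0507 to 0.0866 within an array, well under the spread between arrays. Its levels were 9.36, 8.72, 9.12 and 9.27 in *Rap1*-deficient liver and 10.15, 10.10, 10.09 and 10.59 in wild-type. The genotypes did not overlap. Probe A_55_P1992834 gave -0.70, -1.20, -1.04 and -1.36, a mean of -1.09 ± 0.09. Probe A_55_P1992838 gave -0.74, -1.33, -0.92 and -1.30, a mean of -1.09 ± 0.22. The 3 probe means lay within 0.05 of each other and replicate 1 was the weakest array for each. The dye terms were 0.27 to 0.38 (limma adjusted p = 0.321 to 0.528). Each probe was called lower under 14 of 15 settings, and without replicate 2 the means were -1.01, -1.03 and -0.97 and none was called.

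**Figure D2:**
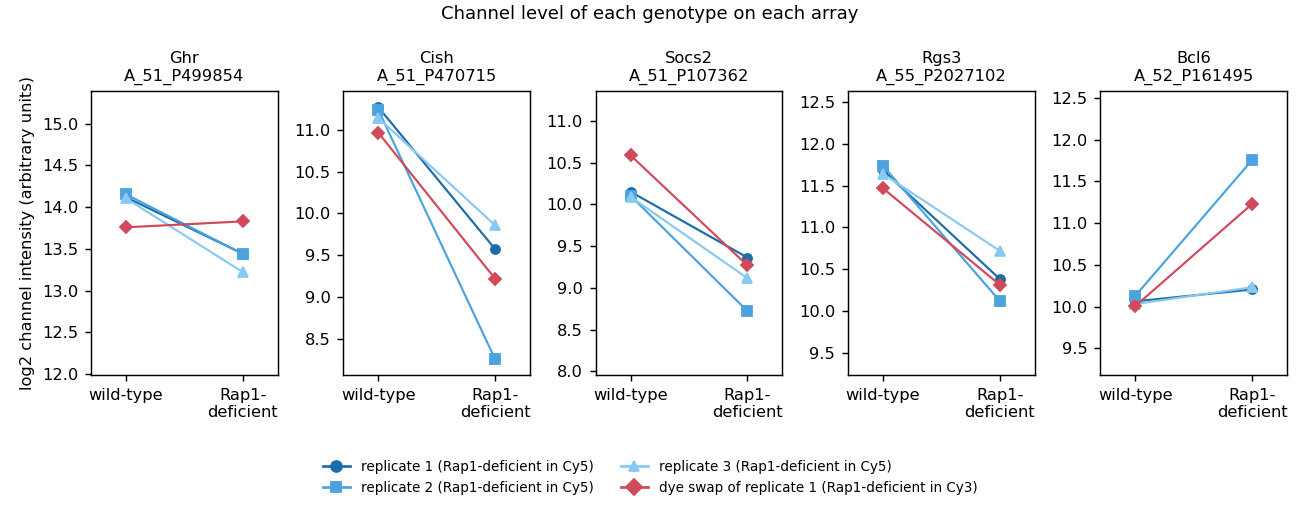
Log2 channel intensity (vertical axis, arbitrary units, each panel spanning the same range) in wild-type and *Rap1*-deficient liver for 5 probes, with 1 line per array. *Cish*, *Socs2* and *Rgs3* fall on all 4 arrays, *Ghr* falls on the Cy5 arrays and is level on the dye swap, and *Bcl6* starts at 10.00 to 10.13 in wild-type and reaches 11.75 and 11.23 on replicate 2 and the dye swap and 10.20 and 10.23 on the other arrays.

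*Bcl6* moved the other way from the inhibitors, and unevenly. Its single probe A_52_P161495 gave 0.14, 1.63, 0.20 and 1.22, a mean of 0.84 ± 0.73. Its wild-type levels were close, at 10.06, 10.13, 10.03 and 10.00, whereas the *Rap1*-deficient levels were 10.20, 11.75, 10.23 and 11.23. The *Rap1*-deficient levels all lay above the wild-type ones, narrowly on replicates 1 and 3 and widely on replicate 2 and the swap. Replicate 1 and the swap, taken as the same RNA, differed by 1.08 for *Bcl6*, against 0.05 for *Cish*. For *Retn*, an adipocyte marker, the same arrays gave 1.25 and 1.35, with 0.10 and 0.07 on replicates 2 and 3. Of 4 listed adipocyte markers *Retn* was the 1 tested, and it was not called. The part of adipocytes in these ratios was not tested. The dye term of *Bcl6* was -0.57 (limma adjusted p = 0.577). It was called higher under 11 of 15 settings. It was not called with a dye term (0.94), with the swap as its own replicate (0.80), with the swap averaged with replicate 2 (0.59), or without replicate 2 (0.44).

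*Rgs3* was low by 1 of its 3 probes. Probe A_55_P2027102 (designed on NM_134257) gave -1.30, -1.62, -0.92 and -1.16, a mean of -1.26 ± 0.35 or 2.39-fold lower, and ranked 42 from the bottom. Its levels were 10.38, 10.12, 10.72 and 10.31 in *Rap1*-deficient liver against 11.68, 11.74, 11.64 and 11.47 in wild-type, with no overlap. Probe A_55_P2027107, on the same accession, gave 0.05, 0.15, 0.25 and -0.37, a mean of 0.08 ± 0.22. Probe A_55_P2027117 (NM_019492) gave -0.15, 0.01, 0.26 and 0.23, a mean of 0.10 ± 0.13. Neither was called, though both were well above background in both genotypes on 4 of 4 arrays. Over the arrays, the first probe minus the second was -1.77 to -0.78 and minus the third -1.63 to -1.15. Probe positions in the transcript and probe sequences were not analysed here, so which transcripts each probe reads was not tested. Without replicate 2 the mean of A_55_P2027102 was -1.08 and not called, and it was called lower under the other 14 settings.

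Over the 14 probes, 5 were below 0 on all 4 arrays, where 10.9% of tested probes were, and 1 was above 0 on all 4, where 10.6% were. The *Rap1*-deficient levels all lay below the wild-type ones for the same 5, against 5.80% of tested probes, and all above for *Bcl6*, against 4.72%. The other 8 overlapped. A dye term past the threshold was found for 3 of the 14, against 27.6% of tested probes. The 3 were *Ghr* A_51_P499854, *Stat5a* and *Rgs3* A_55_P2027107.

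**Figure D3:**
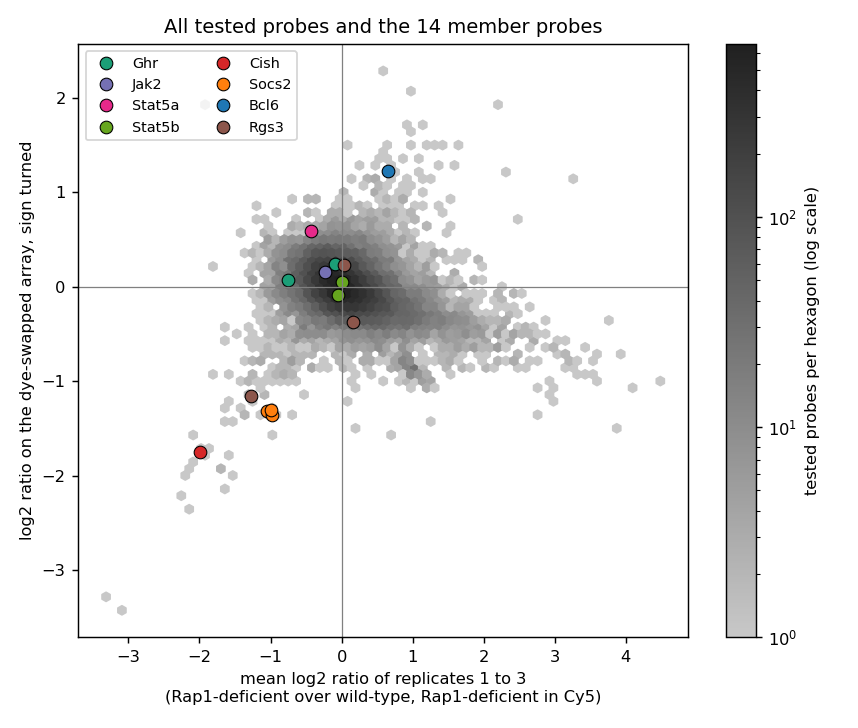
Mean log2 ratio of replicates 1, 2 and 3 (horizontal axis) against the log2 ratio on the dye-swapped array with its sign turned (vertical axis), for all 27513 tested probes as grey hexagons shaded by number on a log scale and for the 14 probes in colour. *Cish*, *Socs2* and 1 *Rgs3* probe lie in the lower left arm where both orientations are negative, and *Bcl6* lies in the upper right.

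The genes with the most similar pattern were found by the Euclidean distance between ratios on the 4 arrays, over 13159 other named genes. *Cdh1* (E-cadherin) was nearest to *Cish*, at a distance of 0.99, with ratios of -1.43, -2.20, -1.12 and -1.24, followed by *Phlda1* at 1.05 and then *Lifr*, *Hhex* and *Slco1a1*. *Gadd45g*, a growth arrest and stress gene, was nearest to *Socs2*, at 0.51, followed by *Foxq1*, *Lifr*, *C8b* and *Osgin1*. *Lifr*, the receptor of leukemia inhibitory factor, was nearest to *Rgs3* A_55_P2027102, at 0.36, followed by *Osgin1*, *Gadd45g*, *C8b* and *Cdh1*. *Lifr* was thus on the list of all 3. *Ghr* A_51_P499854 had its closest neighbour *Rxylt1* at 0.11, and *Tmem70*, *Nwd1*, *Map4k5* and *Trmt11* at 0.13 to 0.15. Their shared step between the Cy5 arrays and the swap follows from the choice by distance, which includes the swap. The nearest to *Bcl6* was *Slc13a4*, also at 0.99, with ratios of 0.74, 0.87, 0.40 and 1.35, then *Slc2a4*, *Acot11*, *Evc2* and *Lgals1*. The distances are descriptions over 4 arrays that share slide and labelling.

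Other genes of the same pathways were read from lists written with earlier results of these data known, each gene by its brightest probe. Among named genes 16.1% of 13167 were called lower and 18.0% higher, with a median ratio of 0.00, and each list is set beside these. Of 10 other class I cytokine receptors, 2 were called lower and 2 higher, with a median of 0.08, and 0.24 with median centring in place of loess. *Lifr* fell on all 4 arrays (-1.32, -1.59, -1.24 and -1.33, mean -1.38, SE 0.10, limma adjusted p = 0.0295). *Prlr*, the prolactin receptor that also signals through JAK2 and STAT5, was lower (-0.32, SE 0.11, limma adjusted p = 0.114). *Lepr*, the leptin receptor, was called higher (1.28, SE 0.25, limma adjusted p = 0.0439) on ratios of 1.37, 1.60 and 1.75 and -0.38 on the swap. *Il13ra1* was called higher by 0.27 and likewise was below 0 on the swap.

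Of 7 tested genes for other JAK kinases and STAT factors, *Tyk2* was called higher (0.54, limma adjusted p = 0.0561) and *Jak1* lower (-0.23, limma adjusted p = 0.139). On the swap *Tyk2* was at -0.16 and *Jak1* at -0.02. The mean of *Jak1* was -0.08 and not called with median centring, and with a dye term neither gene was called. Of 6 other SOCS genes, 3 were called lower and 0 higher, with a median of -0.16. With median centring the median was -0.02 and 0 were called lower, as with the swap as a replicate of its own, and 1 was with a dye term. *Socs3*, which acts on receptors of the IL-6 family, fell with ratios of -0.89, -0.78, -0.14 and -0.71 (mean -0.57, SE 0.15, limma adjusted p = 0.0696). *Socs5* (-0.36) and *Socs7* (-0.28) were also called lower and were below 0 on all 4 arrays. *Socs1* had -0.28, -0.09, 1.97 and -0.16 and was not called. On replicate 3 Kupffer cell markers were high too, with a median ratio of 1.24 over 6 genes, against -0.66, 0.07 and -0.29 on replicate 1, replicate 2 and the swap. Of these 6, *Vsig4* was at -0.14 on replicate 3 and was called lower, and 0 were called higher. *Rgs10* (1.33) and *Rgs2* (1.30) had their highest ratios on replicate 3, and the part of Kupffer cells in those ratios was not tested.

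**Figure D4:**
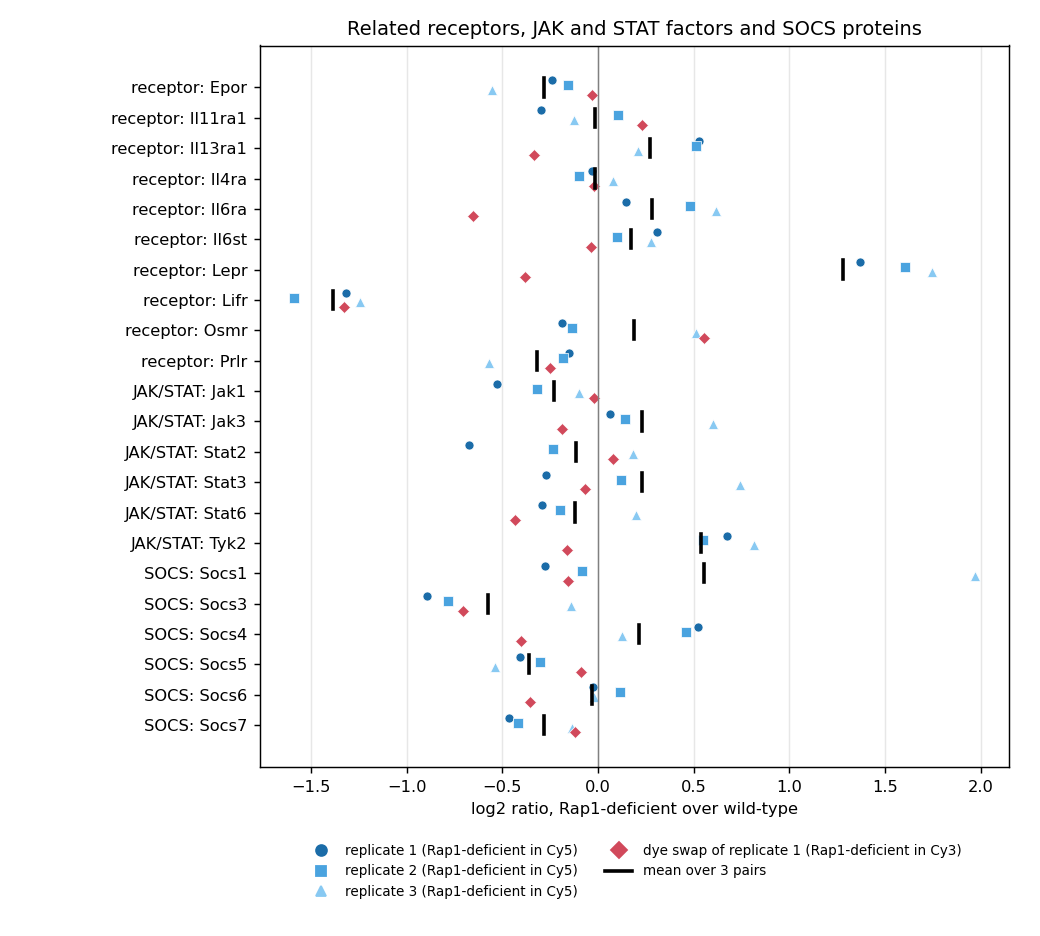
Log2 ratio of *Rap1*-deficient over wild-type liver (horizontal axis) for tested class I cytokine receptors, other JAK and STAT factors and other SOCS genes, with 1 symbol per array and a black bar at the mean over 3 pairs. *Lifr* and *Socs3* stand below 0 on all 4 arrays, *Lepr* has 3 arrays at 1.37 or more and the dye swap at -0.38, and *Socs1* is high on replicate 3 alone.

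Of 9 tested phosphatases and PIAS proteins that limit JAK-STAT signaling, 3 were called higher (*Pias4*, *Pias1* and *Ptpn1*, by 0.37, 0.27 and 0.40) and 0 lower. *Ptpn1* was above 0 on all 4 arrays and both *Pias* genes were below 0 on the swap. Of 17 adaptors and kinases downstream of the receptor, *Pik3r1* (0.99), *Akt1* (0.43) and *Mapk3* (0.41) were called higher and *Irs2* (-0.30) and *Shc1* (-0.28) lower, and the median was -0.02, or 0.13 with median centring. On the swap *Akt1* (-0.40) and *Mapk3* (-0.13) were below 0 and *Shc1* (0.36) above it, and with median centring or a dye term 0 of these genes were called lower. *Pik3r1*, the p85 alpha subunit of PI3-kinase, was above 0 on all 4 arrays (0.88, 1.33, 1.12 and 0.13). Of 5 genes for the BCL6 paralog and corepressors, *Hdac3* (0.87) and *Ncor1* (0.44) were called higher and *Bcor* (-0.34) lower. On the swap *Hdac3* was at -0.08 and *Ncor1* at 0.00, and *Bcor* was at 0.01 on replicate 1. With a dye term *Ncor1* and *Bcor* were not called. Of 8 tested other RGS genes, *Rgs16* (1.39, limma adjusted p = 0.0405) and *Rgs12* (0.40) were called higher, both above 0 on all 4 arrays, and 0 were lower. *Rgs16* and *Rgs3* by A_55_P2027102 thus stood on opposite sides of 0.

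Of 7 genes for growth hormone-induced secreted proteins and factors, 3 were called lower and 4 higher. *Igf1*, the main hormone made by liver under growth hormone, had ratios of -0.38, -0.54, -0.65 and -0.42 (mean -0.53, SE 0.09, limma adjusted p = 0.0402). *Egfr* gave -1.46, -1.09, -0.53 and -1.57 (mean -1.05, limma adjusted p = 0.0414) and *Serpina3k* -0.12, -1.33, -1.26 and -0.98 (mean -1.05, limma adjusted p = 0.0402). All 3 were below 0 on every array. The 4 called higher, *Serpina3n* (1.01), *Igfals* (0.63), *Igfbp3* (0.56) and *Onecut1* (0.31), were above 0 on replicates 1, 2 and 3 and below 0 on the swap, at -0.26, -0.42, -0.06 and -0.46. The wild-type signal of *Onecut1* cleared background on 1 of 4 arrays. The members of this list that fell in both dye orientations and those that rose in 1 orientation therefore differ.

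Genes whose liver RNA differs between male and female mice under the pulse pattern of growth hormone were among the lower calls in both classes. Of 11 tested male-biased genes, 4 were called lower and 1 higher, with a median of -0.20 that turned to 0.04 with median centring. *Slco1a1*, an organic anion transporter, had -2.39, -2.09, -2.28 and -2.00 (mean -2.19, SE 0.09). Its wild-type signal cleared background on 4 of 4 arrays but the knockout signal on 1 of 4, and its mean moved to -2.81 with an offset of 16 and to -4.23 with Agilent's processed signals. *Mup20* (-1.27) and *Cyp7b1* (-1.09) were also called lower and below 0 on all 4 arrays. So was *Hsd3b5*, which was not well above background on any *Rap1*-deficient array. It was at least 1.49-fold lower, a bound set by the dimmest signal above background. *Slco1a1* and *Hsd3b5* passed the filter through wild-type liver alone, where they are high, so no p-value is given for them here. With signal required in both genotypes, 9 male-biased genes were tested. Of these, 2 were called lower and 1 higher, and the median was -0.09. *Cyp2d9* (0.53) was called higher with -0.32 on the swap. Of 13 tested female-biased genes, 4 were called lower and 5 higher. *Sult3a1* (-2.23), *Cyp3a44* (-1.93) and *Cux2* (-0.74), a factor of female liver, were below 0 on all 4 arrays. *Sult2a1*, a sulfotransferase, rose on all 4 (1.56, 1.55, 1.09 and 1.53, mean 1.40, SE 0.12, limma adjusted p = 0.0329), while *Cyp2b9* (1.36), *Cyp17a1* (0.88) and *Cyp2a4* (0.55) were below 0 on the swap. *Fmo2* (0.28) was also called higher and above 0 on all 4 arrays, at 0.04 on the swap. The *Mup*, *Cyp2* and *Cyp3a* genes have near-identical copies, so their probes may read several.

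Over the 93 tested genes of the 10 lists, 20 were called lower and 23 higher. On the dye-swapped array, 19 of the 20 were below 0, against 44.9% of all probes called lower, and 7 of the 23 were above 0, against 30.5% of all probes called higher. No conclusion is drawn from these shares, since the lists were written with earlier results of these data known and the swap enters each call. The list shares count genes by their brightest probe, and the percentages count all called probes. Without replicate 2, 2 of the list genes were called, *Slco1a1* and *Cyp3a44* (limma adjusted p = 0.103 for both), and the adjusted p of the others named here was 0.267 or above. With a dye term in the fit over 4 arrays, 12 were called lower and 7 higher.

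**Figure D5:**
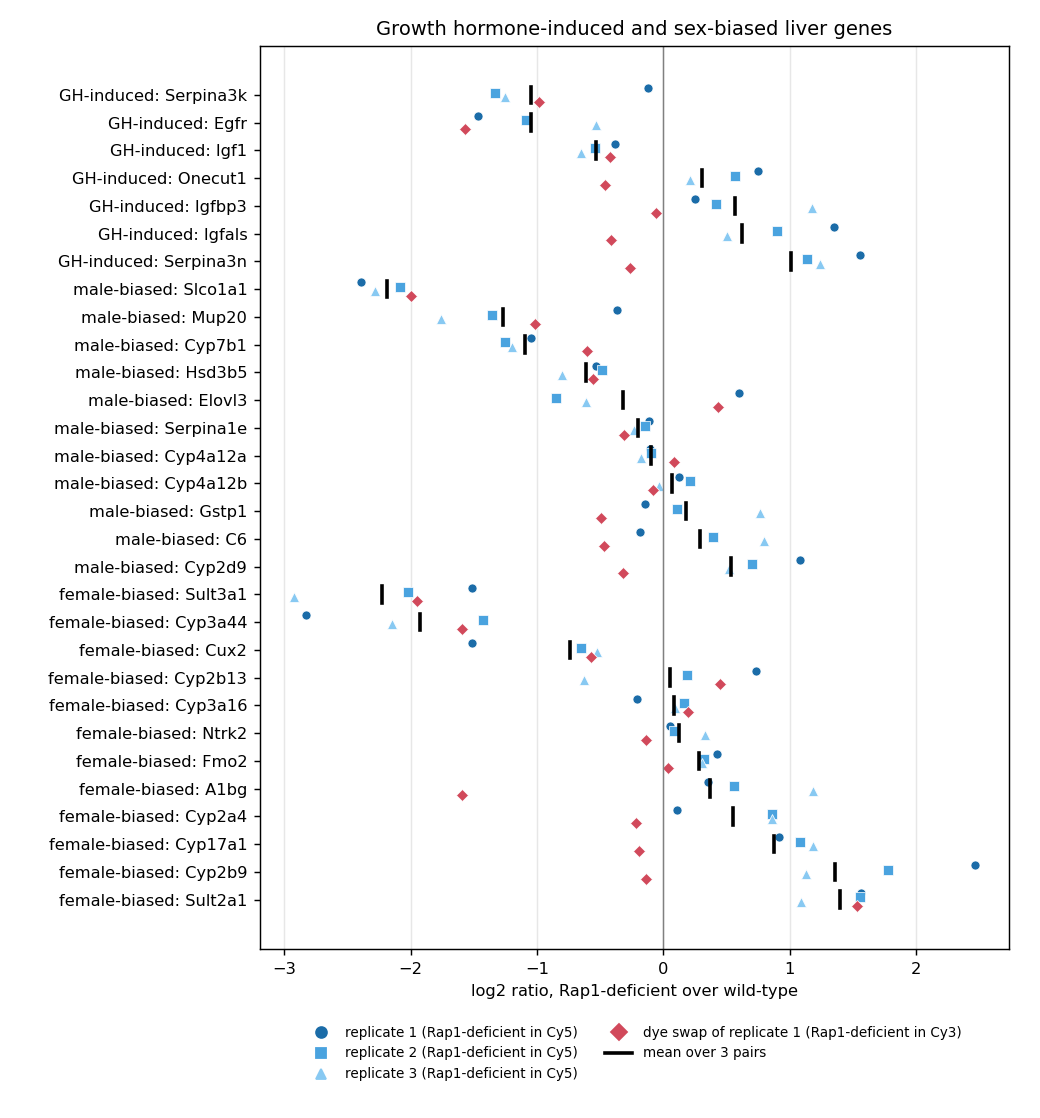
Log2 ratio of *Rap1*-deficient over wild-type liver (horizontal axis) for growth hormone-induced, male-biased and female-biased liver genes, sorted by mean within each class, with 1 symbol per array and a black bar at the mean over 3 pairs. *Igf1*, *Slco1a1*, *Cyp3a44* and *Sult3a1* lie below 0 on all 4 arrays and *Sult2a1* above 0 on all 4, while *Serpina3n*, *Igfals* and *Cyp2b9* have the dye swap below 0 and the other arrays above.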

How the data were processed

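Liver RNA was hybridised to 4 two-colour Agilent arrays on 1 slide, scanned once. The authors deposited median spot and background intensities per dye, the software's processed intensities, and its log10 ratio of Cy5 over Cy3 (Feature Extraction 10.7.3.1 per the file headers, where the methods name another version). A deposited table holds the authors' log2 ratios per probe, with the dye-swapped column already turned. Its column medians were -0.0119, -0.0157 and -0.0203 for replicates 1, 2 and 3 and 0.000826 for the swap, and the sources used here do not give its background correction.

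Median intensities were used because the mean intensities of the plan were not among the columns. They were corrected with normexp (offset 50) and loess-normalized within each array (limma 3.58.1, R 4.3.3) without weight on control spots. Channel levels were taken after Aquantile normalization between arrays. Flagged outlier spots were dropped and spots of a probe averaged. Of 55681 probes, 27513 (49.4%) were tested, those whose spots (a share of 0.5 or more) passed the well-above-background flag of 1 genotype or both throughout the arrays, and no spot was saturated. The number of arrays limits the precision. The swap was averaged with replicate 1, by its number, and an intercept was fitted over 3 pairs with limma and Benjamini-Hochberg adjustment, at the false discovery rate of 0.15 that the paper names. The correlation of the swap with each replicate's own deviation was 0.05, -0.04 and -0.02, which does not tell which replicate was swapped.

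Probes were named by accession through RefSeq (26056 named). The text names all 8 genes and their probes, up to 4 genes of each list by smallest p (others are named where a list's calls are given in full, chosen after their values were seen), the 5 nearest genes, and *Terf2ip*. The cell type markers *Retn* and *Vsig4* were also named after their values were seen. The 8 genes and the lists were chosen with earlier results of these data known. A planned comparison of protein sequences was not run, since no protein table was used here. Alternatives were the offset, background, processed signals, median centring, the value table, dim-probe filters, uses of the swap, leaving out each replicate and a stricter threshold. Some list genes are counted and not reported here by name.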

Additional observations from a re-analysis of the deposited data

Results flagged for a closer look

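Of the 14 probes, 5 had replicates 1, 2 and 3 on 1 side of 0 and the dye-swapped array on the other, which is what brings them here. The swap stood at 0.0712 for *Ghr* A_51_P499854, 0.2418 for *Ghr* A_55_P2059412, 0.1585 for *Jak2*, 0.5918 for *Stat5a* and -0.3725 for *Rgs3* A_55_P2027107. The probes were picked by this sign, so the difference between the orientations was not tested on independent arrays, and the swapped orientation rests on 1 array. The share of all tested probes with this pattern was not counted. Across tested probes the Cy5 arrays had r of -0.29 to -0.24 with the swap, so nothing about these genes is read from the count.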

How the results depend on the processing

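The direction of *Cish*, the 3 *Socs2* probes, *Rgs3* A_55_P2027102, *Ghr* A_51_P499854 and *Bcl6* was kept under all 15 alternative processing settings. The main setting called 9488 probes, 3771 lower and 5717 higher (60.3% higher). Leaving out 1 replicate at a time gave 7 to 12596 calls, 6 to 5330 lower and 1 to 7266 higher. The highest counts came without replicate 1, which also left out its swap, so that fit held Cy5 arrays alone and could not separate genotype from dye. The lowest counts came without replicate 2, where the calls of all 7 called probes of the 8 genes were lost. The probes of the 8 genes called lower ranged from 0 to 7 and those called higher from 0 to 1, and the list genes called lower from 2 to 23 and higher from 0 to 35. With median centring in place of loess the median of all tested probes rose from 0.03 to 0.17, 796 probes and 11 list genes were called lower and 87.7% of calls were higher. Agilent's processed signals gave 49.3% higher calls, and 45.3% came from the authors' value table. Leaving out the dye-swapped array gave 14496 calls, 6377 of them lower. With that array as a replicate of its own there were 83 calls, 56 lower and 27 higher, with 6 list genes lower, 1 higher and 0 probes of the 8 genes higher. A dye term gave 1844 calls, 576 lower and 1268 higher, with 12 list genes lower, 7 higher and 0 probes of the 8 genes higher. An adjusted p under 0.05 left 2495 calls, 741 lower and 1754 higher, with 12 list genes lower, 11 higher and 0 probes of the 8 genes higher. Averaging the swap with replicate 2, an alternative chosen after seeing the data, left 0 probes of the 8 genes higher. The cause of these changes was not tested. Each array pairs both genotypes, so every setting compared them within arrays.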
